A study of Mus musculus with 12 samples.

Results

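The genes described here are 10 genes of mixed or little-known role whose log2 values were clearly higher in the striatum of HD transgenic mice: Tmc3, Nsun7, Tex30, Fsd1l, Taf4b, Zfand4, Trappc13, Kif4, Nipal2 and Gm12695. They were picked by name for their large differences between HD and non-transgenic arrays, so that those differences are given as a description, with no test. Each was found as 1 probe set with a single symbol, 10 of the 19248 genes measured. The arrays came from 4 groups of 3 mice aged 8 weeks. HD_p62KO mice carried an HD transgene and a homozygous knockout of p62, HD_p62WT mice carried the transgene with both copies of p62, NT_p62KO mice were non-transgenic p62 knockouts, and NT_p62WT mice had neither change. The cross asked how loss of p62 alters striatal gene expression in an HD model. The HD line, the promoter of its transgene, the sex of the mice and the tissues that lack p62 are not stated in the labels.

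Huntington's disease is caused by an expanded CAG repeat in the huntingtin gene, and medium spiny neurons, the projection neurons of the striatum, are the cells most affected. p62, encoded by Sqstm1, binds ubiquitinated cargo and hands it to autophagosomes, and it is found in inclusions of mutant huntingtin. The 10 genes belong to no single pathway. Taf4b encodes a subunit of the general transcription factor TFIID that is best known from the gonads, and Nsun7 is a relative of RNA cytosine methyltransferases that is needed for sperm motility in mice. Tmc3 and Nipal2 encode membrane proteins of the transmembrane channel-like and the NIPA magnesium transporter families. Trappc13 is part of the TRAPP complexes that tether vesicles, Kif4 is a kinesin that binds chromosomes and works in mitosis, and Zfand4, Fsd1l and Tex30 are known mainly from their domains or their place of expression. Gm12695 is a predicted gene. It is known as the site of the transgene in the R6/2 line of HD mice, but the labels do not say whether the mice studied here are of that line.

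Promoter windows are shown for the 4 genes with the smallest spread between mice of one group, since for these the HD difference stood out most clearly from the noise. Each window runs from 250 bases before to 50 bases after a RefSeq transcript start in GRCm38.p6, on the strand of the gene, 5′ to 3′. Capitals mark matches to the motifs searched on either strand.
Tmc3, chr7:83584681-83584980, plus strand: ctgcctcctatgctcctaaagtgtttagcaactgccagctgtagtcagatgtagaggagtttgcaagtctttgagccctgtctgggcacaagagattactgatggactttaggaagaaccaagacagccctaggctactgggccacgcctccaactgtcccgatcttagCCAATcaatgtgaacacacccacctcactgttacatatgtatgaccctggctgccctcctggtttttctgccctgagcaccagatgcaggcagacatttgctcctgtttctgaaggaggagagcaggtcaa
Gm12695, chr4:96786701-96787000, minus strand: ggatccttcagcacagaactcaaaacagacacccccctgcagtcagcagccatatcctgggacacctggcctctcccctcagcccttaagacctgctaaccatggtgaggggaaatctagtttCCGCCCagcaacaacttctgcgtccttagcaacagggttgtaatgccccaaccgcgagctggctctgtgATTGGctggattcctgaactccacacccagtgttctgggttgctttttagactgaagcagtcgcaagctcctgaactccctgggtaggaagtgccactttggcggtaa
Nsun7, chr5:66259648-66259947, plus strand: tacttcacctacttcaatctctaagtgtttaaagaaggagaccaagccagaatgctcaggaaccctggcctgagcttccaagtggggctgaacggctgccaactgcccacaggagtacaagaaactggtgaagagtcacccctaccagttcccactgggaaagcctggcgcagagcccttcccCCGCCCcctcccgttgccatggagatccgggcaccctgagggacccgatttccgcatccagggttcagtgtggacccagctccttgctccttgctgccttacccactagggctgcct
Tex30, chr1:44102392-44102691, minus strand: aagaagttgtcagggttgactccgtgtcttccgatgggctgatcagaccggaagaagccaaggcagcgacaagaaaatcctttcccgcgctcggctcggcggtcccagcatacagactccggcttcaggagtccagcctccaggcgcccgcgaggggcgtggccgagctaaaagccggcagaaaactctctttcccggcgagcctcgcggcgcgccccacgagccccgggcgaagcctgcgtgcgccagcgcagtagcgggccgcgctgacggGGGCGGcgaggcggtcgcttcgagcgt
These windows differ in base composition. Tex30 has a window rich in CpG (GC content 67.7%, ratio of observed to expected CpG 1.107), whereas that of Tmc3 is nearly without CpG (51.0% and 0.103). The windows of Gm12695 and Nsun7 lie between them, with ratios of 0.273 and 0.281, and the median of all 27025 windows in the table was 0.389. A window was at hand for 8 of the 10 genes. Those not shown were rich in CpG, with ratios of 0.962 (Fsd1l), 1.053 (Zfand4), 0.953 (Trappc13) and 0.967 (Kif4). The CCAAT box (CCAAT or ATTGG) was present in 5 of these 8 windows (Tmc3, Fsd1l, Zfand4, Kif4 and Gm12695) and in 37.9% of all windows. The GC box (GGGCGG or CCGCCC) was present in 6 of 8 (Nsun7, Tex30, Fsd1l, Zfand4, Kif4 and Gm12695) and in 35.9% of all windows. The shares of all windows were not matched for base composition, so nothing particular to the 10 genes is read from them. A TATA box (TATAAA or TTTATA) was found in 1 of 8, that of Zfand4, and in 14.2% of all windows. The palindromes CACGTG, an E-box, and TGACGTCA, a cAMP response element, were found in 0 of 8 windows, against 7.24% and 1.88% of all windows. None of the 5 motifs contains another.

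The arrays themselves were alike in level, with medians between 7.79 and 7.83 on the log2 scale, and the p62 labels held. Sqstm1 lay between 8.92 and 9.13 in HD_p62KO arrays and between 11.26 and 11.75 in HD_p62WT arrays. In NT_p62KO arrays it lay between 8.44 and 8.52, and in NT_p62WT arrays between 11.19 and 11.35. In the mean HD effect 19.9% of all genes passed as higher in HD mice and 15.0% as lower. Of 15 measured medium spiny neuron markers, 13 were lower and 2 higher in HD mice (limma, mean HD effect), with array means of the list from 10.55 to 10.70 in HD mice and from 10.94 to 11.17 in NT mice. Of the interneuron markers 6 of 9 were lower in HD mice, as were 4 of 8 of mature oligodendrocytes, 2 of 9 of astrocytes and 1 of 7 of endothelial cells, the last 2 near the share of all genes. In the lists of microglia, oligodendrocyte precursors, ependymal cells and cortical excitatory neurons 0 of 8, 6, 5 and 7 passed, and of the choroid plexus list 1 of 7 was higher. That list varied between mice of one group, from 7.03 to 9.22 in HD_p62KO arrays. The SD over all genes within an array moved with HD status, from 1.64 to 1.73 in HD arrays and from 1.58 to 1.67 in NT arrays. It was smallest in NT_p62KO replicate 3, HD_p62WT replicate 2 and NT_p62WT replicate 1, and values that depend on it are given with the results below. With array SD as a covariate the mean HD effect had 2541 genes, against 6728, so that loss of calls was not confined to the lists below. Since array SD moved with HD status, the covariate can also take up part of an HD difference and widen its SE. A call lost with the covariate is therefore not shown to be false. The part of these marker lists in the results was not tested. Detection calls were not analysed here, so whether a dim gene exceeds background is unknown, and with 3 arrays a group precision is set by their number.

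All 10 genes were higher in HD mice than in NT mice whether p62 was present or not. Averaged over both p62 genotypes, the difference ran from 0.85 (Taf4b) to 1.13 (Trappc13) on the log2 scale, with a median of 1.01 where the median of all genes was -0.02. In 9 of the 10 genes every one of the 6 HD arrays lay above every one of the 6 NT arrays, which was the case for 10.5% of all genes. In Nipal2 the groups overlapped, with a lowest HD value of 6.86 and a highest NT value of 6.89. Among p62 knockouts alone, and among mice with normal p62 alone, all 10 genes had the 3 HD arrays above the 3 NT arrays, against 22.3% and 17.8% of all genes. In the fit to all arrays 21.7% of all genes passed in the HD effect without p62, 7.10% with p62 and 35.0% on average (limma, Benjamini-Hochberg adjusted p under 0.05). As the genes were picked for this contrast, nothing is read from these counts. Arrays of whole striatum cannot tell more RNA per cell from more cells of a type that expresses the gene.

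**Figure D1:**
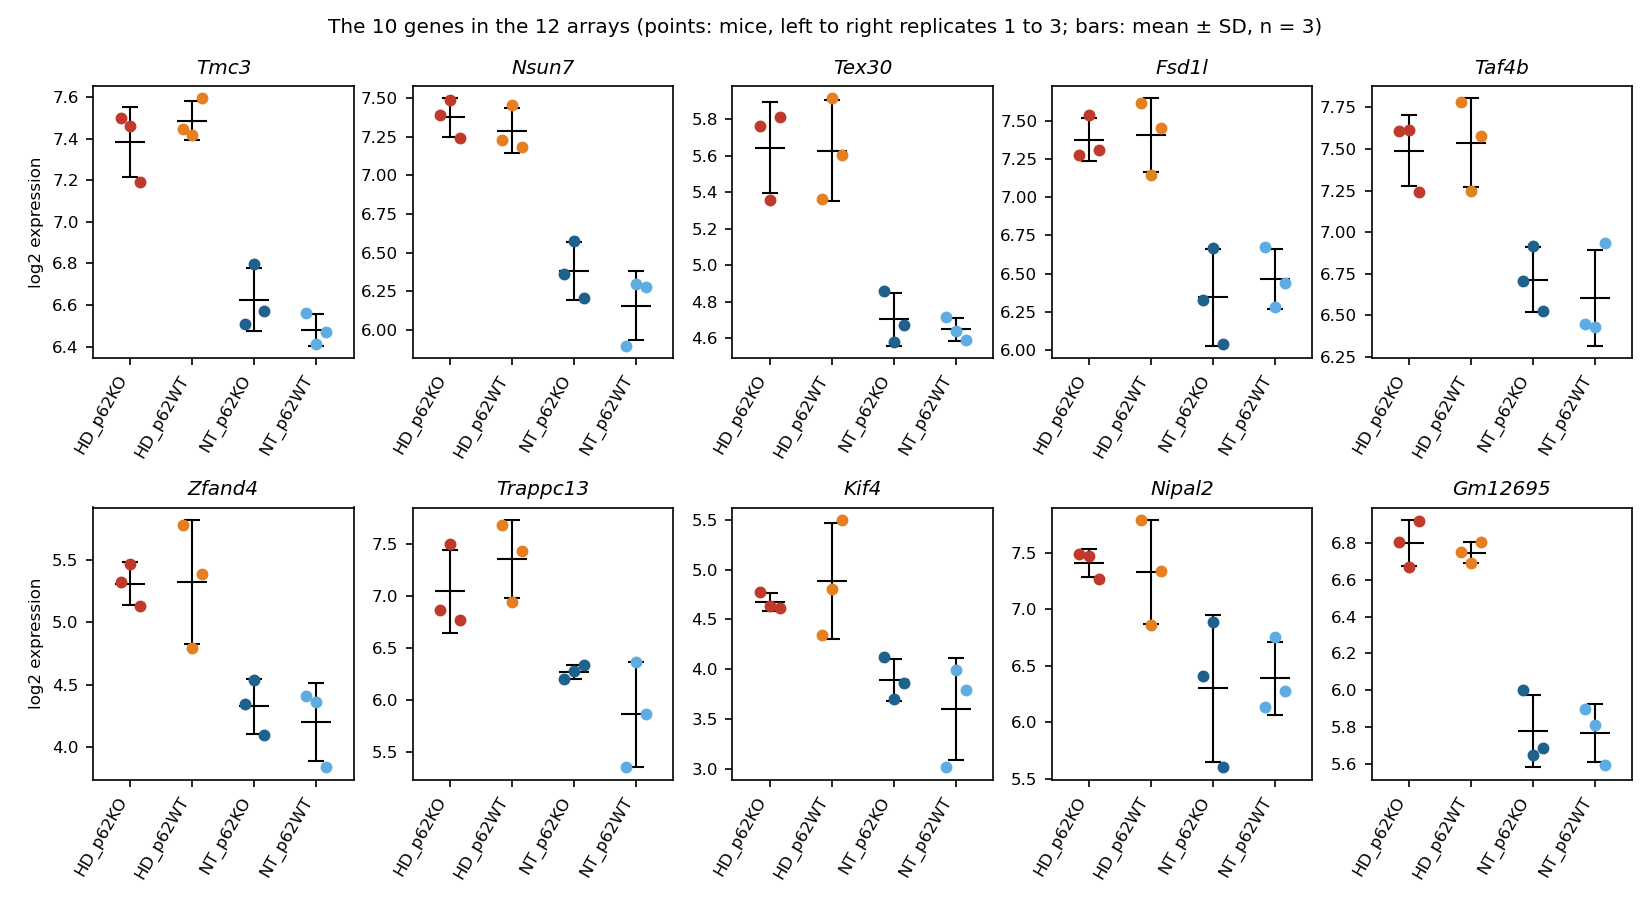
Log2 expression of the 10 genes in each of the 12 arrays (vertical axes, own range per gene), with the 4 groups along the horizontal axes, a point per mouse and bars for mean ± SD (n = 3). In each panel the HD_p62KO and HD_p62WT points lie above the NT_p62KO and NT_p62WT points, except in Nipal2, where the lowest HD point at 6.86 is just under the highest NT point at 6.89.

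The genes of transcription and RNA come first. Taf4b, on chromosome 18, had log2 values of 7.61, 7.61 and 7.24 in HD_p62KO mice and 7.78, 7.25 and 7.58 in HD_p62WT mice. In NT_p62KO mice it had 6.71, 6.91 and 6.52, and in NT_p62WT mice 6.45, 6.43 and 6.94. The HD and NT arrays were separated by a gap of 0.31, and 1 NT_p62WT mouse stood about as high as the highest NT_p62KO mouse. The HD difference was 0.77 ± 0.17 (SE) without p62 and 0.93 ± 0.17 with p62. Nsun7, on chromosome 5, had 7.39, 7.49 and 7.24 in HD_p62KO mice and 7.23, 7.45 and 7.18 in HD_p62WT mice, against 6.36, 6.58 and 6.21 in NT_p62KO mice and 5.90, 6.30 and 6.28 in NT_p62WT mice. Its 6 HD arrays lay close together and the gap to the NT arrays was 0.61. Nsun7 differed by 0.99 ± 0.13 without p62 and by 1.13 ± 0.13 with p62 (SE).

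Other genes of the same complexes and families were tested for the mean HD effect, in which 19.9% of all genes passed as higher in HD mice and 15.0% as lower (limma, Benjamini-Hochberg adjusted p under 0.05 over all genes). Of 17 measured TFIID subunits 10 rose, 0 fell and 7 did not pass, with a median difference of 0.19. Taf2, a subunit that contacts the core promoter, averaged 8.68 and 8.61 in HD_p62KO and HD_p62WT mice, against 7.97 and 8.05 in NT_p62KO and NT_p62WT mice, a difference of 0.64 ± 0.07 (SE, adjusted p = 6.69e-05). Taf15 rose by 0.39, Taf1, the largest subunit, by 0.38 and Taf9b by 0.34 (limma, adjusted p = 0.000259, 0.00123 and 0.00154). Taf8, the brightest subunit that did not pass, differed by 0.02, and Taf4, the close paralog of Taf4b, by -0.02. With the SD of each array as a covariate, 7 of the 10 kept the call (Taf1, Taf2, Taf3, Taf5, Taf9, Taf9b and Taf15), where the number called over all genes went from 6728 to 2541. In the NSUN family 1 of 6 relatives rose: Nop2, a nucleolar methyltransferase of ribosomal RNA, by 0.20 ± 0.04 (SE; limma, adjusted p = 0.00434). Nsun2 did not pass (0.05).

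Both Taf4b and Nsun7 are best known from germ cells, so 26 other germ cell genes were looked at. Of these 0 rose, 2 fell and 24 did not pass, against 19.9% higher and 15.0% lower of all genes. Their median was -0.11, and that of all genes was -0.02. Sohlh2, a transcription factor of early germ cells, fell by 0.29 and Acrv1, an acrosomal protein, fell by 0.27 (limma, adjusted p = 0.0178 and 0.0269). Both calls ended with array SD as a covariate (adjusted p = 0.354 and 0.288), and Acrv1 also lost its call without HD_p62KO replicate 2, HD_p62WT replicate 3, NT_p62KO replicate 3 or NT_p62WT replicates 1 or 2 (difference -0.34 to -0.18 over the alternatives). The number of germ cell genes called lower ran from 0 to 7 over the alternatives tried. Tdrd9, the brightest that did not pass, differed by -0.12.

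Of the membrane proteins, Tmc3 was the steadiest. It lies on chromosome 7 and had 7.50, 7.46 and 7.19 in HD_p62KO mice and 7.45, 7.42 and 7.59 in HD_p62WT mice, against 6.51, 6.80 and 6.57 in NT_p62KO mice and 6.56, 6.41 and 6.47 in NT_p62WT mice. The gap between HD and NT arrays was 0.40, and it was widest among mice with normal p62, at 0.86. The within-group SD of 0.13 was the smallest of the 10 genes, and 46% of 500 genes of like brightness had a smaller one. The HD difference of Tmc3 was 0.76 ± 0.10 without p62 and 1.01 ± 0.10 with p62 (SE). Nipal2, on chromosome 15, was the most variable. It had 7.49, 7.47 and 7.27 in HD_p62KO mice and 7.79, 6.86 and 7.34 in HD_p62WT mice, against 6.41, 6.89 and 5.60 in NT_p62KO mice and 6.14, 6.76 and 6.28 in NT_p62WT mice. The lowest HD array, HD_p62WT replicate 2, and the lowest NT array, NT_p62KO replicate 3, are also the arrays of smallest SD in their groups. The HD difference was 1.11 ± 0.29 without p62 and 0.94 ± 0.29 with p62 (SE). With array SD as a covariate it was 0.50 without p62, 0.62 with p62 and 0.56 on average, against 1.03 on average without the covariate.

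No relative of either passed as higher, but the lists hold only 7 and 5 genes. Of all genes 19.9% passed as higher and 15.0% as lower, so nothing particular to the families is read from the counts. In the TMC family 0 of 7 other members rose and 2 fell: Tmc8 fell by 0.26 and Tmc1, a part of the mechanotransduction channel of inner ear hair cells, fell by 0.27 (limma, adjusted p = 0.0209 and 0.0313). Neither held with array SD as a covariate (adjusted p = 0.328 and 0.521), and both also lost their calls without HD_p62KO replicate 2 or HD_p62WT replicate 3. The call of Tmc1 further ended without HD_p62KO replicate 3, HD_p62WT replicate 1, NT_p62KO replicates 1 or 3, or NT_p62WT replicates 1 or 3, and its difference ran from -0.33 to -0.10 over the alternatives, against -0.31 to -0.14 for Tmc8. Tmc7, the brightest that did not pass, differed by -0.17. In the NIPA family 0 of 5 rose and 1 fell: Nipa2, a magnesium transporter, fell by 0.18 (limma, adjusted p = 0.0481), a call that was lost under 14 of the alternatives, among them leaving out any single array other than HD_p62KO replicate 1, NT_p62KO replicate 1 or NT_p62WT replicate 2 (difference -0.24 to -0.12). Nipal3 differed by 0.08 and did not pass.

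Trappc13, the tethering subunit, had the largest average difference of the 10 genes. It lies on chromosome 13 and had 6.86, 7.50 and 6.76 in HD_p62KO mice and 7.68, 6.94 and 7.43 in HD_p62WT mice, against 6.20, 6.27 and 6.33 in NT_p62KO mice and 5.35, 6.37 and 5.86 in NT_p62WT mice. The NT_p62KO arrays were within 0.13 of each other and the NT_p62WT arrays were spread over 1.01. The HD difference was 0.77 ± 0.25 without p62 and 1.49 ± 0.25 with p62 (SE). With array SD as a covariate the value without p62 was 0.46. Kif4, on chromosome X, was the dimmest, with 4.78, 4.63 and 4.61 in HD_p62KO mice and 4.35, 4.81 and 5.50 in HD_p62WT mice, against 4.12, 3.70 and 3.86 in NT_p62KO mice and 3.02, 3.996 and 3.79 in NT_p62WT mice. The p62WT groups were the more spread out, with an SD of 0.58 in HD_p62WT and 0.52 in NT_p62WT arrays, against 0.09 in HD_p62KO and 0.21 in NT_p62KO arrays. Its HD difference was 0.78 ± 0.27 without p62 and 1.28 ± 0.27 with p62 (SE).

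Of 14 other TRAPP subunits 8 rose, 0 fell and 6 did not pass, with a median of 0.21. Of all genes 19.9% passed as higher and 15.0% as lower. Trappc2, a small subunit of the core complex, averaged 10.72 and 10.79 in HD_p62KO and HD_p62WT mice, against 10.40 and 10.55 in NT_p62KO and NT_p62WT mice, a difference of 0.28 ± 0.05 (SE; limma, adjusted p = 0.00272). Trappc3, Trappc2l and Trappc1, all of the core, rose by 0.25, 0.25 and 0.29 (limma, adjusted p = 0.00407, 0.0046 and 0.00859). The difference of Trappc13 was 1.13 on the same scale. With array SD as a covariate 1 of the 8 calls was left in the list, while the calls of Trappc3, Trappc2l and Trappc1 ended (adjusted p = 0.0597, 0.0652 and 0.154). Over all genes the same covariate took the number called from 6728 to 2541. Trappc10, the brightest that did not pass, differed by 0.02.

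Of 32 measured mitotic kinesins and proliferation genes, the company of Kif4 in dividing cells, 6 rose, 4 fell and 22 did not pass, with a median of -0.02. These counts are near the shares of all genes, 19.9% higher and 15.0% lower, so that they say nothing particular about the list. Tpx2, a spindle assembly factor, rose by 0.43, Pcna, the sliding clamp of DNA replication, by 0.56 and Racgap1, a regulator of cytokinesis, by 0.51, whereas Birc5, a chromosomal passenger protein, fell by 0.29 (limma, adjusted p = 0.00131, 0.00295, 0.00648 and 0.00329). The replication helicase subunit Mcm5 differed by 0.08 and did not pass. With array SD as a covariate 1 gene was called higher and 1 lower, and Pcna and Racgap1 were no longer called (adjusted p = 0.0715 and 0.1). Among mitotic kinesins, named here after their values were seen, Kif18a rose by 0.51 and Kif11 by 0.29 (limma, adjusted p = 0.0128 and 0.0104), while Kif2c fell by 0.52, Kif14 by 0.20 and Kif22 by 0.15 (adjusted p = 0.0332, 0.0409 and 0.0477). With array SD as a covariate none of these 5 kinesins passed (adjusted p = 0.0558, 0.153, 0.5, 0.523 and 0.397), and the calls of Kif2c, Kif14 and Kif22 also ended on leaving out single arrays of every group, HD_p62KO replicate 2, HD_p62WT replicate 1, NT_p62KO replicate 3 and NT_p62WT replicates 1 and 2 for all 3. Over the alternatives their differences ran from -0.64 to -0.23, from -0.26 to -0.08 and from -0.18 to -0.09.

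The remaining named genes are known from domains. Zfand4, with an AN1-type zinc finger and a ubiquitin-like domain, lies on chromosome 6 and had 5.33, 5.47 and 5.13 in HD_p62KO mice and 5.79, 4.79 and 5.39 in HD_p62WT mice, against 4.34, 4.54 and 4.10 in NT_p62KO mice and 4.40, 4.36 and 3.84 in NT_p62WT mice. HD_p62WT replicate 2 was its lowest HD array and lay 0.25 above its highest NT array. The HD difference was 0.99 ± 0.22 without p62 and 1.13 ± 0.22 with p62 (SE), and it was 0.60 without p62 when array SD was a covariate. In the AN1 family 2 of 6 relatives rose and 0 fell, against 19.9% higher and 15.0% lower of all genes. Zfand6 averaged 8.92 and 8.96 in HD_p62KO and HD_p62WT mice, against 8.44 and 8.37 in NT_p62KO and NT_p62WT mice, a difference of 0.54 ± 0.06 (SE; limma, adjusted p = 0.000191), and Zfand2a rose by 0.19 (adjusted p = 0.0255, and 0.297 with array SD as a covariate). The call of Zfand2a also ended on leaving out HD_p62KO replicate 3, HD_p62WT replicate 1, NT_p62KO replicate 3 or NT_p62WT replicate 1, and its difference ran from 0.11 to 0.22 over the alternatives. Zfand5, a binder of ubiquitin chains and proteasomes, differed by 0.14 and did not pass.

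Fsd1l carries a fibronectin type III and a SPRY domain and lies on chromosome 4. It had 7.28, 7.54 and 7.31 in HD_p62KO mice and 7.62, 7.15 and 7.46 in HD_p62WT mice, against 6.33, 6.67 and 6.04 in NT_p62KO mice and 6.67, 6.28 and 6.44 in NT_p62WT mice. The gap between HD and NT arrays was 0.47. It was, with Nipal2 and Gm12695, 1 of the 3 genes whose HD difference was larger without p62 (1.03 ± 0.16) than with p62 (0.94 ± 0.16, SE). Tex30, named for its expression in the testis and dim here, lies on chromosome 1 and had 5.76, 5.36 and 5.81 in HD_p62KO mice and 5.36, 5.92 and 5.61 in HD_p62WT mice, against 4.86, 4.58 and 4.67 in NT_p62KO mice and 4.72, 4.64 and 4.59 in NT_p62WT mice. Its NT arrays spanned 0.28 and its HD arrays 0.56. The HD difference was 0.94 ± 0.14 without p62 and 0.98 ± 0.14 with p62 (SE).

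Of 19 measured genes that share the FSD or TEX name, which marks no common function, 2 rose, 1 fell and 16 did not pass. The shares of all genes were 19.9% higher and 15.0% lower. Tex9 rose by 0.82 ± 0.19 (SE; limma, adjusted p = 0.00666), nearly as much as Tex30, with means of 7.48 and 7.57 in HD_p62KO and HD_p62WT mice, against 6.76 and 6.65 in NT_p62KO and NT_p62WT mice. With array SD as a covariate it did not pass (0.62, adjusted p = 0.131). Tex35 fell by 0.34 (limma, adjusted p = 0.00129). Tex10 rose by 0.20, just past the threshold (adjusted p = 0.0498), and lost the call under 14 of the alternatives, among them leaving out any of HD_p62KO replicates 2 and 3, HD_p62WT replicates 1 and 3, NT_p62KO replicates 1 and 3 and the 3 NT_p62WT replicates (0.03 to 0.24 over the alternatives). Tex261 did not pass (0.11).

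**Figure D2:**
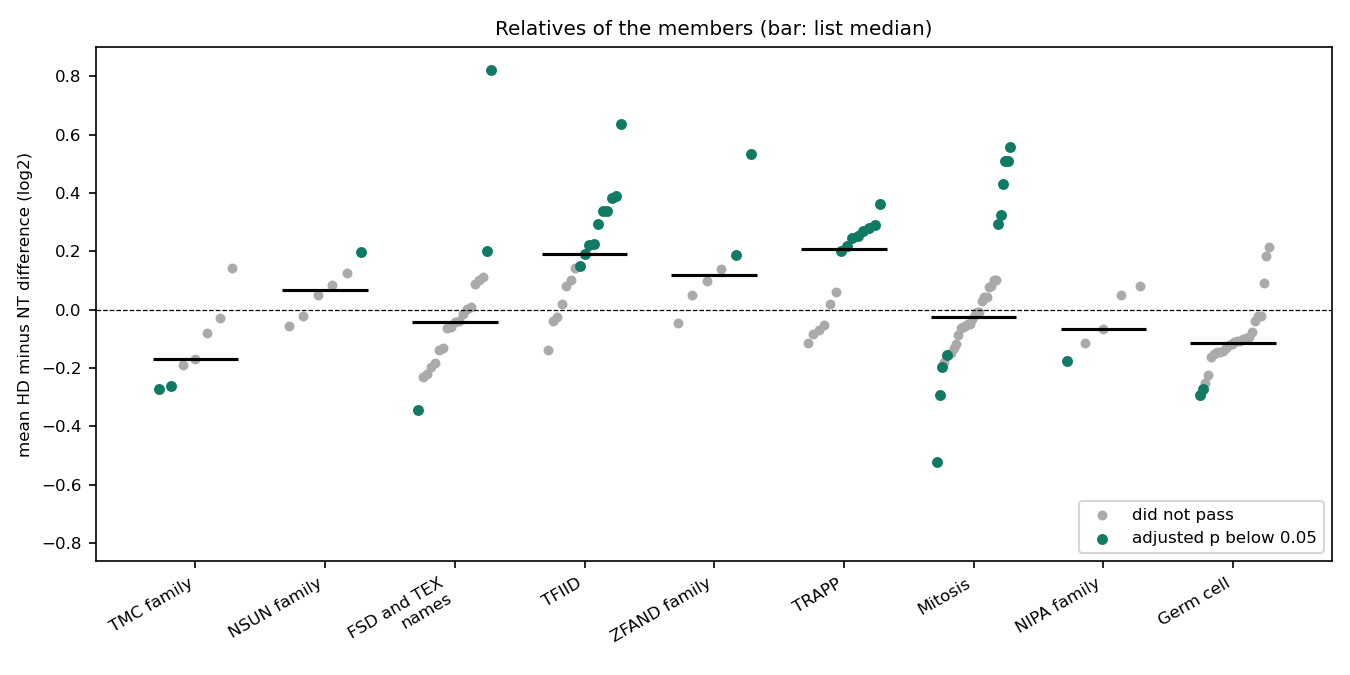
Mean HD minus NT difference on the log2 scale (vertical axis) for relatives of the 10 genes, in 9 lists along the horizontal axis, a point per gene, with green points for genes past an adjusted p of 0.05 (limma) and a bar for the median of the list. The TFIID list, with a median of 0.19, and the TRAPP list, with a median of 0.21, hold green points on the higher side only. With array SD as a covariate 7 of the 10 TFIID calls and 1 of the 8 TRAPP calls were left. The NSUN and ZFAND lists, of 6 genes each, hold 1 and 2 green points, on the higher side. Of all genes 19.9% passed as higher, so nothing is read from those 2 counts. The germ cell list lies mostly below 0, with a median of -0.11.

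Gm12695, the predicted gene on chromosome 4, had the clearest separation. It had 6.81, 6.67 and 6.92 in HD_p62KO mice and 6.75, 6.69 and 6.81 in HD_p62WT mice, against 6.003, 5.65 and 5.68 in NT_p62KO mice and 5.90, 5.81 and 5.59 in NT_p62WT mice. All 6 HD values fell within 0.25 of each other, and the gap to the NT arrays, 0.67, was the widest of the 10 genes. The HD difference was 1.02 ± 0.11 without p62 and 0.98 ± 0.11 with p62 (SE), and its average was 6.97 times the within-group SD, the highest such ratio of the 10, against 2.36 for Nipal2. The average was 0.97 with array SD as a covariate and 1.00 without. Within single p62 genotypes Nsun7 had a wider gap than Gm12695, 0.669 against 0.666 without p62 and 0.887 against 0.792 with p62. With p62 the gap of Tmc3, 0.857, was also wider than that of Gm12695.

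The 10 genes were dim. The brightness of a probe set also depends on its probes, so these places describe the measurement and not the amount of RNA. Their mean log2 value over the 12 arrays placed them between percentile 2.67 (Kif4) and percentile 32.3 (Taf4b) of the 19248 genes, with Zfand4 at 4.57, Tex30 at 6.58 and Gm12695 at 17.3, so that all 10 lay below percentile 33.3. Of the 3838 genes called higher in the mean HD effect, 12.01% lay below that percentile. Of the 2890 called lower, 39.2% did. Of all genes, 32 had a mean HD difference at least as large as that of Taf4b. The other 22 included 14 below percentile 33.3, and 14 in which all 6 HD arrays lay above all 6 NT arrays. Ranked by the mean HD difference, the 10 genes stood at places 4 (Trappc13) to 32 (Taf4b). They held places 3 to 20 with p62 and 13 to 112 without p62.

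**Figure D3:**
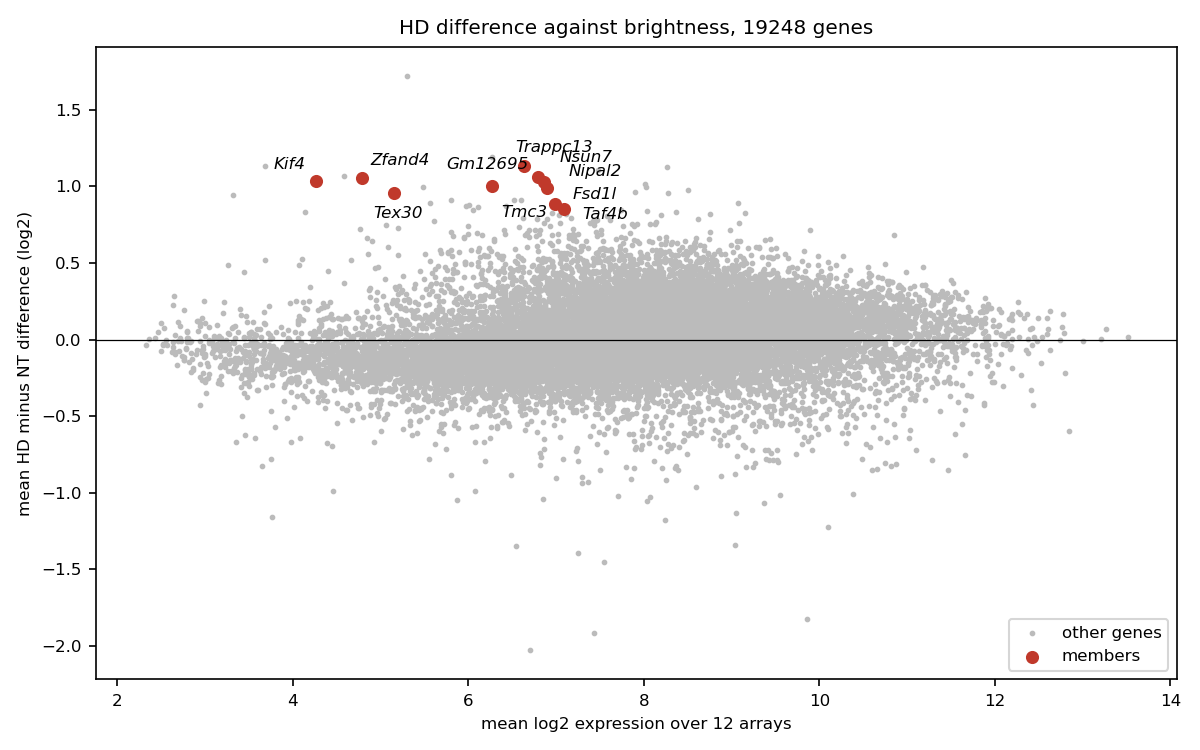
Mean HD minus NT difference on the log2 scale (vertical axis) against mean log2 expression over the 12 arrays (horizontal axis), with grey points for other genes and red points for the 10 genes. The red points lie at differences of 0.85 to 1.13 and to the left, at percentiles 2.67 to 32.3 of brightness.

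Spread between mice of a group differed widely among the 10 genes. The within-group SD was 0.13 in Tmc3, 0.14 in Gm12695, 0.17 in Nsun7 and 0.20 in Tex30. It was 0.23 in Fsd1l and 0.24 in Taf4b, and it reached 0.33 in Zfand4, 0.37 in Trappc13, 0.40 in Kif4 and 0.43 in Nipal2. For the last 4 genes between 91.2% and 98.8% of 500 genes of like brightness had a smaller SD. Fsd1l and Taf4b were alike in this, with 90% and 92%. The share was 71.2% for Nsun7, 67% for Tex30, 50% for Gm12695 and 46% for Tmc3. The same arrays recurred at the low end. HD_p62WT replicate 2 was the lowest of its group in 7 of the 10 genes, HD_p62KO replicate 3 in 7, and NT_p62KO replicate 3 lay below its group mean in 9. Leaving out HD_p62WT replicate 2 gave a median HD difference with p62 of 1.07, against 0.99 with all arrays, and leaving out NT_p62KO replicate 3 gave a median without p62 of 0.84, against 0.96.

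The p62 genotype was not named in the rule that picked the genes, though the rule used these same arrays, and the p62 effect was tested. Nothing passed: in HD mice, in NT mice, on average and for the difference between the HD effects without and with p62, 0 of the 10 genes had an adjusted p under 0.05 (limma; smallest adjusted p 0.991), and 0 of 10 had an unadjusted p under 0.05. Of all genes 0.00520%, 0.00520%, 0.0104% and 0% were called in these comparisons. At an unadjusted p under 0.05 there were 555, 639, 518 and 665 of 19248 genes. The interaction and the p62 differences within HD and within NT mice are independent of the average HD difference in this balanced design. They are not independent of the HD difference with p62 alone, in which the 10 genes held places 3 to 20, against 13 to 112 without p62. The signs of these p62 differences, given below, are therefore not read as a result about the genes.

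In HD mice the p62KO minus p62WT difference ran from -0.31 (Trappc13) to 0.09 (Nsun7), and 6 of the 10 genes were lower in the knockouts. The median was -0.02 for the 10 genes and -0.002 for all genes. The median of the 10 genes ran from -0.19 to 0.05 over the alternatives. For Gm12695 the difference was 0.05 (95% interval -0.19 to 0.29) and for Tmc3 -0.10 (-0.32 to 0.12). Those were the narrowest intervals of the 10 genes. For Nipal2 the interval ran from -0.56 to 0.72, so that even a p62 difference of 0.50 on the log2 scale would lie inside it. In NT mice the p62KO minus p62WT difference was above 0 in 8 of 10 genes, from -0.12 (Fsd1l) to 0.41 (Trappc13). The median was 0.12 for the 10 genes and -0.006 for all genes. Nsun7 had the smallest p there, with 0.22 ± 0.13 (SE; limma, unadjusted p = 0.103, adjusted p = 1).

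The difference between HD effects was below 0 in 7 of 10 genes, which is to say that the HD difference was smaller without p62 in these 7. The median was -0.14 for the 10 genes and 0.004 for all genes. As the genes were picked from these arrays, nothing is read from this count. The median of the 10 genes ran from -0.41 to -0.05 over the alternatives, the second without NT_p62KO replicate 2. Trappc13 had the most negative value, -0.72 ± 0.36 (SE, 95% interval -1.50 to 0.06; limma, unadjusted p = 0.0682, adjusted p = 0.991), which sums a lower level without p62 among HD mice (-0.31) and a higher one among NT mice (0.41). Its value lay between -0.97 (without NT_p62WT replicate 2) and -0.46 (without NT_p62WT replicate 1) over the alternatives. Kif4 followed with -0.50 ± 0.39 (SE, interval -1.35 to 0.34), and its value depended on single arrays. It was -0.20 without HD_p62WT replicate 3 and -0.21 without NT_p62WT replicate 1, against -0.77 without HD_p62WT replicate 1 and -0.87 with array weights. For Tex30, Gm12695 and Fsd1l the difference lay within 0.09 of 0. A p above the threshold does not show that the HD difference is the same with and without p62.

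**Figure D4:**
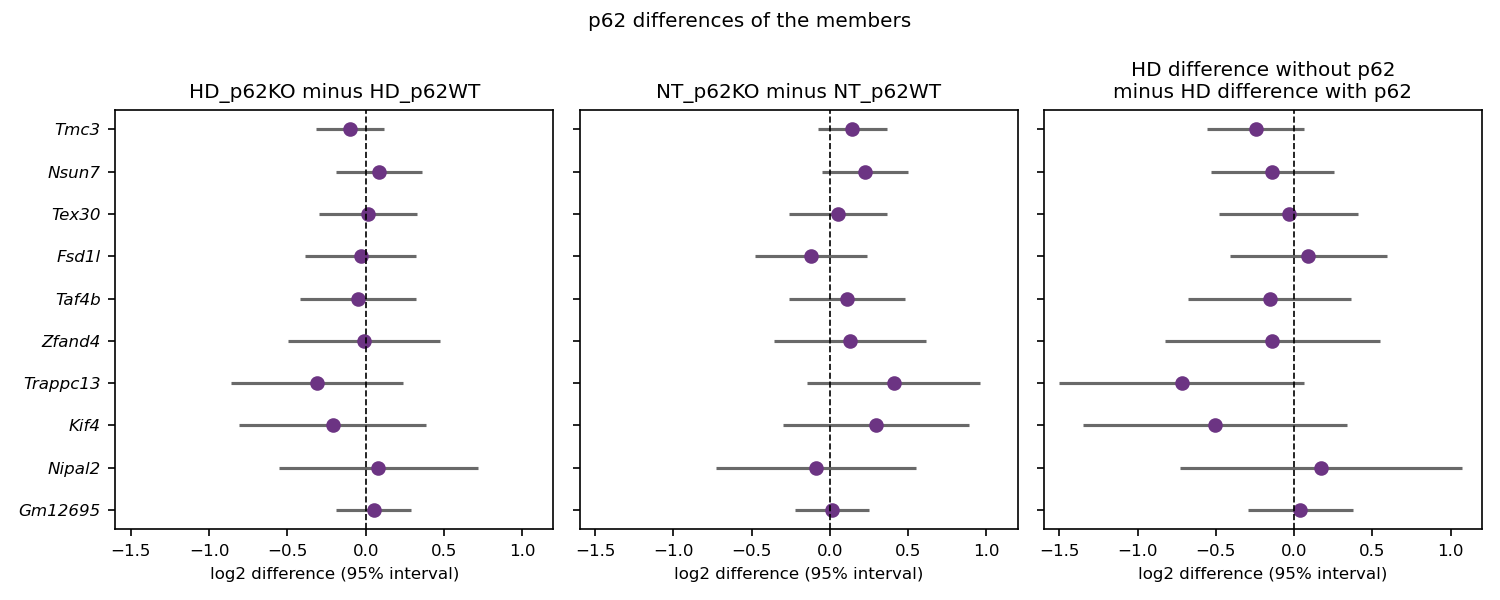
Log2 differences (horizontal axes) of the 10 genes for HD_p62KO minus HD_p62WT, NT_p62KO minus NT_p62WT, and the HD difference without p62 minus the HD difference with p62, as points with 95% intervals from the fit to all 12 arrays. Every interval crosses 0, and that of Trappc13 in the right panel runs from -1.50 to 0.06.

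Genes that lie beside the 10 in the genome (GRCm38.p6, gap between gene ends) were tested as well. Within 1 Mb lay 150 measured genes, of which 38 rose and 22 fell in HD mice, against 19.9% and 15.0% of all genes. Among nearest genes that passed as higher were Stard5, a carrier of cholesterol beside Tmc3 (0.46; limma, adjusted p = 0.00185), Poglut2, a glucosyltransferase beside Tex30 (0.42, adjusted p = 0.000818), and Trim23, a ubiquitin ligase 0.373 kb from Trappc13 (0.29, adjusted p = 0.0089; 0.171 with array SD as a covariate). Washc2, 0.922 kb from Zfand4, and Pdzd11, 0.117 kb from Kif4, rose by 0.15 and 0.19 (limma, adjusted p = 0.0263 and 0.0417), calls that were lost under 8 and 13 of the alternatives. Both ended without HD_p62KO replicate 2, HD_p62WT replicates 1 or 3, or NT_p62WT replicates 1 or 3, and that of Pdzd11 also without HD_p62KO replicate 3 or NT_p62KO replicates 2 or 3 (0.08 to 0.16 for Washc2 and 0.07 to 0.23 for Pdzd11 over the alternatives). Nearest genes that fell were Kctd1 beside Taf4b (-0.27; limma, adjusted p = 0.00943) and Kcns2, a modulatory potassium channel subunit beside Nipal2 (-0.42, adjusted p = 0.00185).

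The remaining nearest genes did not pass. Apbb2, whose annotated span overlaps that of Nsun7, averaged 11.51 and 11.60 in HD_p62KO and HD_p62WT mice, against 11.53 and 11.56 in NT_p62KO and NT_p62WT mice. Sgtb, a co-chaperone 0.292 kb from Trappc13 on the side away from Trim23, differed by -0.08. Slc44a1, beside Fsd1l, differed by 0.14 and Marchf8, beside Zfand4, by 0.12. The others were Gm10610 beside Tmc3 (-0.05), Rbm47 beside Nsun7 (0.22), Mettl21c beside Tex30 (-0.01), Tal2 beside Fsd1l (-0.16), Psma8 beside Taf4b (-0.20), Gdpd2 beside Kif4 (-0.08) and Pop1 beside Nipal2 (0.13).

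Farther out, the 6 passing genes of smallest p within 1 Mb were these. The metalloprotease gene Adamts6, 108 kb from Trappc13, rose by 0.69 ± 0.07 (SE), the cholesterol exporter Abca1, 471 kb from Fsd1l, by 0.53 ± 0.06, and N4bp2, 430 kb from Nsun7, by 0.63 ± 0.08 (limma, adjusted p = 5.17e-05, 0.000179 and 0.000209). Zfand6, already given as a relative of Zfand4, lies 988 kb from Tmc3. Osr2, a transcription factor gene 617 kb from Nipal2, fell by 0.56 and Dgat2l6, a relative of diacylglycerol acyltransferase genes 80.0 kb from Kif4, fell by 0.61 (limma, adjusted p = 0.000438 and 0.000445). Around Kif4 8 of 26 neighbours rose and 4 fell, against 19.9% higher and 15.0% lower of all genes.

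One gene within 1 Mb of Taf4b, chosen after its values were seen, had a larger mean HD difference than Taf4b itself (0.85). Ss18, a subunit of BAF chromatin remodelling complexes 98.8 kb from Taf4b, had 7.75, 8.43 and 8.05 in HD_p62KO mice and 8.13, 7.54 and 8.29 in HD_p62WT mice, against 6.39, 7.30 and 6.58 in NT_p62KO mice and 7.36, 7.04 and 6.89 in NT_p62WT mice. The HD and NT arrays did not overlap. The mean HD difference was 1.11 ± 0.18 (SE; limma, adjusted p = 0.00117), and it was 0.76 (adjusted p = 0.0283) with array SD as a covariate. Psma8, which lies between Ss18 and Taf4b, did not pass.

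Around Gm12695 11 genes were measured, of which 3 rose and 0 fell, against 19.9% higher and 15.0% lower of all genes. All 3 lie on its lower-coordinate side, as do all measured neighbours but E130114P18Rik and Nfia, so nothing is read from the side. Their values were chosen for display after being seen. Cyp2j6, a cytochrome P450 gene 159 kb away, averaged 8.57 and 8.61 in HD_p62KO and HD_p62WT mice, against 8.08 and 8.24 in NT_p62KO and NT_p62WT mice (0.43; limma, adjusted p = 0.00464). Cyp2j12, at 582 kb, rose by 0.44 and 9530080O11Rik, at 756 kb, by 0.41 (adjusted p = 0.00136 and 0.00726). The call of Cyp2j6 ended with array SD as a covariate (adjusted p = 0.09). Cyp2j5, the gene next to Gm12695 on that side at 59.4 kb, differed by -0.04 and did not pass, and neither did E130114P18Rik, the next on the other side at 781 kb (-0.07).

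**Figure D5:**
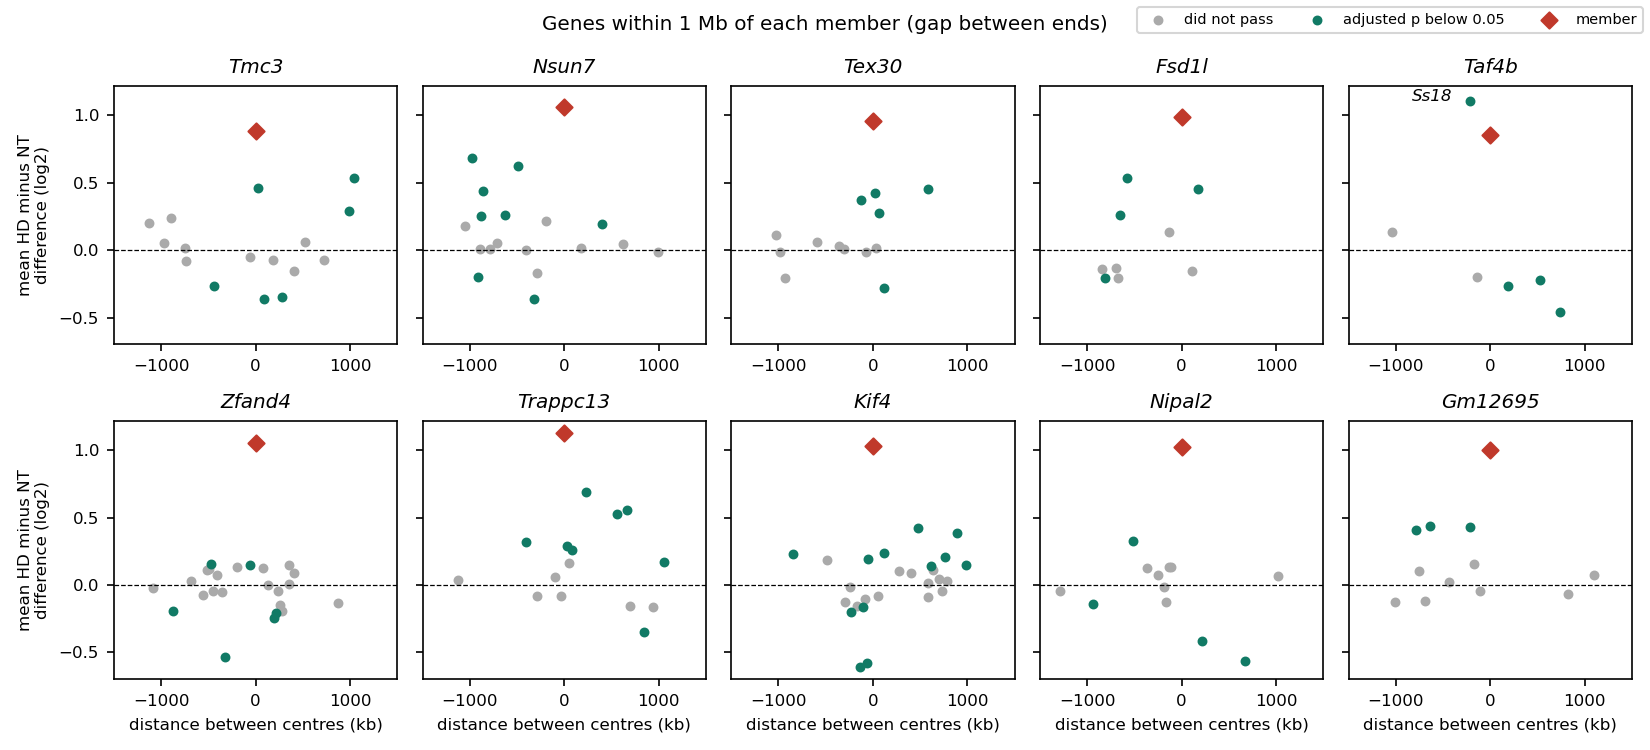
Mean HD minus NT difference on the log2 scale (vertical axes) of genes within 1 Mb of each of the 10 genes, against the distance between gene centres in kb (horizontal axes), with green points for genes past an adjusted p of 0.05 (limma), grey points for the rest and a red diamond for the gene itself. Each diamond is the highest point of its panel except for Taf4b at 0.85, below Ss18 at 1.11.

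Genes that followed the shared profile of the 10 most closely were sought over the 12 arrays. The profile is the mean deviation of the 10 genes from their own mean in each array, and it ran from 0.35 (HD_p62WT replicate 2) to 0.61 (HD_p62WT replicate 3) in HD arrays and from -0.66 (NT_p62WT replicate 1) to -0.32 (NT_p62KO replicate 2) in NT arrays. The 5 closest other genes were Guf1, a GTPase of mitochondrial translation, Cetn2, a centrin of the centriole, Fam126a, a part of a lipid kinase complex at the plasma membrane, Acy3, an aminoacylase, and Abca8a, an ABC transporter. Their root-mean-square difference from the profile was 0.146, 0.150, 0.159, 0.161 and 0.178 on the log2 scale, and for the 10 genes it ran from 0.129 (Tmc3) to 0.326 (Kif4). The 10 genes define the profile, so their own distances are not on a par with those of other genes. As they were picked for their HD difference, a near match shows little beyond an HD difference of like size. Guf1 averaged 9.03 and 8.95 in HD_p62KO and HD_p62WT mice, against 7.95 and 8.07 in NT_p62KO and NT_p62WT mice. Of the 5, Abca8a alone was as dim as the 10 genes, at percentile 22.6 of brightness, and the other four lay at percentiles 55.7 to 66.7.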

How the data were processed

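Striatal RNA of 12 mice aged 8 weeks (100 ng labelled per sample) was hybridised, per the labels' protocols, to Affymetrix whole-transcript arrays, 1 per mouse. Per the submitters' processing notes the authors used RMA, and the deposited series table holds its log2 values, 1 per probe set; its settings and the genome build are not stated there. Because RMA equalizes the arrays, a change common to most genes cannot be detected. The platform annotation gave 1 symbol to 19942 of 24055 probe sets and several to 1225, and it did not list 2888. For 470 genes with several probe sets the brightest was used, leaving 19248 genes.

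Groups and replicate numbers come from the titles, which name biological replicates, taken here as separate mice. Means of the 4 groups were fitted to all 12 arrays with limma 3.58.1 (R 4.3.3) (8 residual and 4.14 prior degrees of freedom), with Benjamini-Hochberg adjustment over all genes and a threshold of 0.05. Contrasts were the p62 effect in HD and in NT mice and their mean, the HD effect without and with p62 and their mean, and the difference of the HD effects. The fit was tested on simulated data. Same-numbered arrays did not deviate together, so the numbers were not taken as pairs.

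The 10 genes and the lists of relatives and markers were chosen with earlier results of these data known. Named were all 10 genes, up to 4 relatives per list with the smallest p among those passing and the brightest not passing, the nearest measured gene on each side, up to 6 passing genes within 1 Mb, and the 5 genes of most similar profile. Neighbours and promoter windows were taken from RefSeq tables (GRCm38.p6), which held windows for 8 of the 10 genes. Array SD is the SD over all genes of an array. Alternatives are given in the closing section; array SD as a covariate and leaving out the array of smallest SD in HD_p62KO, HD_p62WT and NT_p62KO were added after the data were seen.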

Additional observations from a re-analysis of the deposited data

How the results depend on the processing

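All 10 genes kept a higher value in HD mice in the 665 HD values computed under the alternatives, with 0 reversed and 8 moved by more than the within-group SD. No p62 comparison of the 10 genes was called under any alternative, and of 880 such values 99 took the other sign. The median HD difference of the 10 genes was 0.72 without p62 with array SD as a covariate, and their median difference of HD effects was -0.41 without the array of smallest SD in HD_p62KO, HD_p62WT and NT_p62KO and -0.05 without NT_p62KO replicate 2, against -0.14. With the replicate number as a block the HD effect with p62 had 709 genes, against 1366. Correlations of deviations between same-numbered arrays ran from -0.34 to 0.21, so the numbers give no pairing.

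Counts over all genes moved as follows. The p62 effect in HD mice had 2 genes with genes under the 25th percentile of brightness left out, with trended and robust variances or with array weights. The p62 effect in NT mice had 2 without the 3 arrays of smallest SD and 4 in a fit of the 2 groups alone, and the mean p62 effect had 1 without those 3 arrays and 1 without the smallest-SD array of 3 groups. The HD effect without p62 had 6663 with array weights, 1790 without the 3 arrays of smallest SD, 1742 in a fit of its 2 groups and 843 with array SD as a covariate, against 4172, and 36.9% of the 843 were higher in HD, against 61.5%. The HD effect with p62 had 4625 with array weights and 3320 without the smallest-SD array of 3 groups. The mean HD effect had 2541 with array SD as a covariate, against 6728. Leaving out each array in turn gave 1 to 2 genes (p62 in HD mice), 1 to 1 (p62 in NT mice), 2 to 2 (mean p62), 0 to 1 (difference of HD effects), 1273 to 5128 (HD without p62), 398 to 2040 (HD with p62) and 4977 to 7542 (mean HD). The causes were not tested. Without scanner files, signal over background was not assessed for these dim genes.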
